A study of Mus musculus with 2 samples.

Results

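The splicing factor genes described here are the 63 genes of SR, hnRNP and core snRNP proteins that were measured in both libraries of mouse E14 embryonic stem cells. They were chosen by symbol, as genes whose names begin with Srsf or Prpf and a number, or with Hnrn, Snrp, Sf3a or Sf3b, leaving out Snrpn by name. A minimum of 200 unique molecular identifiers (UMIs, each marking 1 captured transcript end) over both libraries was required. Such a symbol was held by 65 of the 27998 genes measured, and 10380 genes of any name passed the minimum. The 63 members were 10 SR genes, 20 hnRNP genes, 11 snRNP genes, 9 SF3 genes and 13 PRPF genes. Srsf12 was the gene just outside the minimum, with 107 UMIs in the Idoxuridine library and 64 in the DMSO library, and Prpf40b was the member just inside it, with 334 UMIs in Idoxuridine and 462 in DMSO.

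The study treated E14 cells, a male line per the labels, for 24 h with Idoxuridine, a thymidine analogue that carries iodine and enters DNA as it replicates, or with the solvent DMSO. Both cultures grew feeder-free on gelatin in 2i/LIF medium, which holds inhibitors of a pair of kinases beside a cytokine that keeps the stem cell state. The dose was labelled 10 µM, while the protocol field reads 10 mM, and the strain label of both samples is C57BL/6. Each treatment is 1 culture and 1 library, so no difference between the treatments has a replicate check and none was tested, and the ranges given in parentheses are 95% intervals that cover counting error alone.

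Splicing removes introns from new transcripts on the spliceosome, which is built from U-rich small RNAs wrapped in ring-shaped sets of Sm proteins. SR proteins bind exons and mostly favour the use of nearby splice sites, and hnRNP proteins coat the transcript and often repress them. SF3A and SF3B hold the U2 particle at the branch site, and PRPF proteins join the particles and remodel the machine at later steps. Many SR and hnRNP genes carry conserved exons whose inclusion sends their own messages to decay, and so restrain their own level. The 3′ chemistry used here counts transcript ends, so levels may be compared between genes without dividing by length, but which exons a transcript holds was not measured.

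The Idoxuridine library held 742 cells and 30454626 UMIs, and the DMSO library 811 cells and 40818344 UMIs. The Idoxuridine cells were shallower, with a median of 37425 UMIs against 44502 in DMSO cells, and the libraries shared 2 cell barcodes. Nuclear-retained RNAs, mostly Malat1, made up a median of 0.507% of a cell's UMIs in Idoxuridine cells and 0.319% in DMSO cells. All 8 pluripotency markers were present in both libraries, with a summed level of 4454 counts scaled to a common library total (CPM, UMIs per 1e+06) in Idoxuridine and 6139 in DMSO. All 7 primitive endoderm markers together reached 16.3 CPM in Idoxuridine and 2.60 CPM in DMSO, and 7 fibroblast markers 11.6 CPM in Idoxuridine and 0.710 CPM in DMSO, with Postn at 0 in both libraries and Col1a1 and Col3a1 at 0 in DMSO. Of the 6 markers of 2-cell-embryo-like cells, 3 (Zscan4f, Tcstv1 and Tcstv3) were at 0 in both libraries, and the sum was 0.164 CPM in Idoxuridine and 0 in DMSO. Whether these differences in depth, nuclear-retained RNA or marker levels have a part in the values below was not tested.

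The splicing factor genes were abundant and their summed level differed little between the libraries. Together they took 1.98% of all UMIs in Idoxuridine and 2.05% in DMSO, a log2 ratio of -0.05 (-0.05 to -0.04). The hnRNP genes, the largest share, summed to 9303 CPM in Idoxuridine and 9447 CPM in DMSO (log2 ratio -0.02). The SR genes summed to 4916 CPM in Idoxuridine and 5172 CPM in DMSO (-0.07), the snRNP genes to 2523 CPM in Idoxuridine and 2680.3 CPM in DMSO (-0.09), the SF3 genes to 1812 CPM in Idoxuridine and 1927 CPM in DMSO (-0.09) and the PRPF genes to 1242 CPM in Idoxuridine and 1261 CPM in DMSO (-0.02). All 5 sums were thus slightly lower in Idoxuridine, and they stayed lower with the 2 other library scalings and with cells weighted equally or thinned, while the hnRNP and PRPF sums came to 0.0035 and 0.0030 when mitochondrial, ribosomal protein and Malat1 UMIs were left out of the totals. The choice of scaling matters to every ratio here: TMM scaling shifts each log2 ratio by -0.21 and median-of-ratios scaling by -0.09, so a gene within 0.21 above 0 changes direction under TMM.

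Within each family a few genes carried most of the UMIs, and their order was much alike in both libraries. Hnrnpf, which binds runs of G bases near splice sites, was the most abundant member, at 2337 CPM in Idoxuridine and 2406 CPM in DMSO. Hnrnpa1, which often silences exons, stood at 1090.3 CPM in Idoxuridine and 1223 CPM in DMSO, and its relative Hnrnpa2b1 at 967 CPM in Idoxuridine and 980.2 CPM in DMSO. Hnrnpk, which binds runs of C bases, stood at 1175 CPM in Idoxuridine and 1159 CPM in DMSO. The highest SR genes were Srsf3, a small SR protein that also acts in export of messages, at 1285 CPM in Idoxuridine and 1340.2 CPM in DMSO, and Srsf2, which stays in the nucleus, at 977 CPM in Idoxuridine and 1048 CPM in DMSO. The plot of levels by family runs down from Hnrnpf to Prpf40b, a relative of a yeast U1 protein, at 11.0 CPM in Idoxuridine and 11.3 CPM in DMSO.

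**Figure D1:**
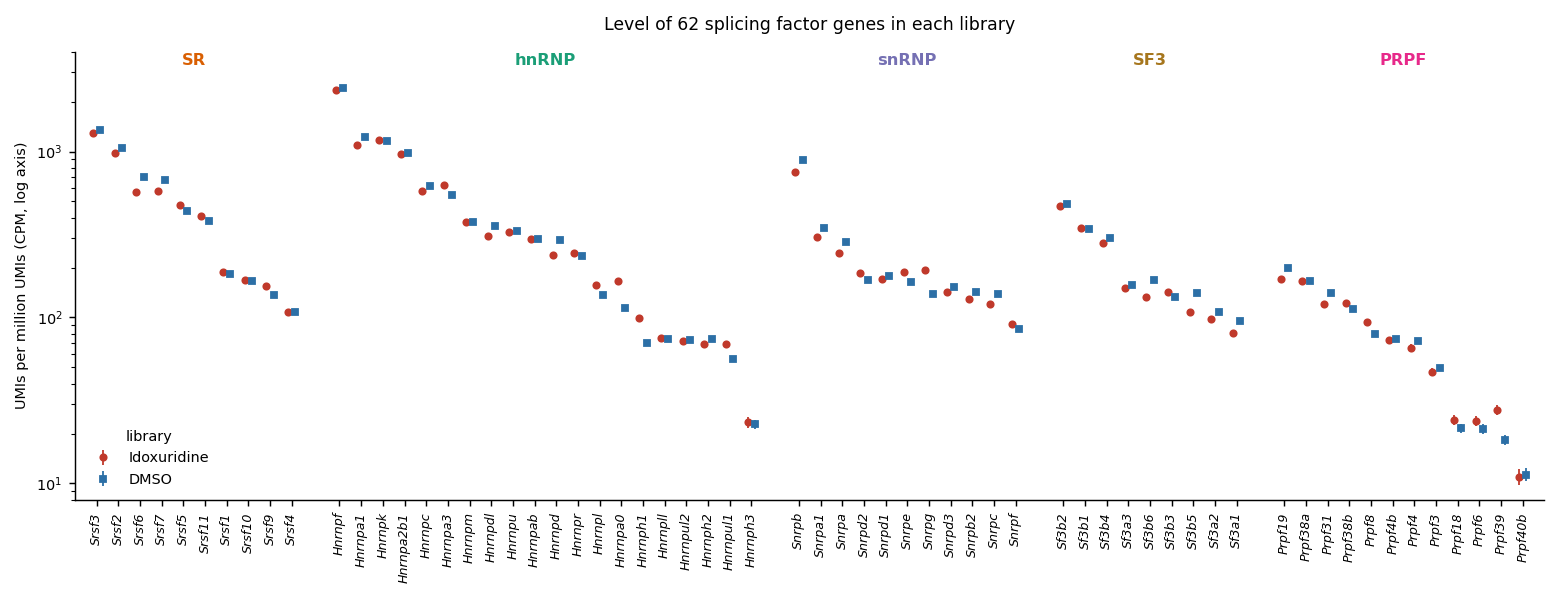
Level of 62 of the 63 genes in CPM on a log axis, by family and in order of UMIs, with Idoxuridine as red circles left of DMSO as blue squares; bars are 95% Poisson intervals, often smaller than the symbols. The symbols of a gene lie close together along the whole range, from Hnrnpf at 2337 CPM in Idoxuridine and 2406 CPM in DMSO to Prpf40b at 11.0 CPM in Idoxuridine and 11.3 CPM in DMSO.

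Single genes differed little as well. Of the 63 members 54 (85.7%) lay within 0.25 log2 of equal levels, against 51.3% of all 10380 genes. The shares of all genes in this paragraph were not matched for abundance. They include many rare genes, which have wider counting error, while 38 of the members were in the most abundant eighth of genes. A member was called where its ratio was at least 0.5 log2 with Poisson intervals that did not overlap: 3 members were called higher in Idoxuridine and 0 lower, beside 18.8% of all genes called higher and 4.2% called lower. With TMM scaling 0 members were called higher and 4 lower, beside 12.1% and 12.2% of all genes. Under TMM 31 members lay within 0.25 log2, and the share of all genes there was not counted. With median-of-ratios scaling only Prpf39 was called higher and 0 members lower, beside 15.3% and 6.45%. The intervals of 16 members lay apart with Idoxuridine higher and of 23 with Idoxuridine lower, 25.4% and 36.5% of members, beside 39.1% and 22.5% of all genes. The median log2 ratio was -0.01 over members and 0.09 over all genes in CPM, a difference of -0.10 that a library scaling cannot change, since it shifts every gene alike.

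Part of that difference goes with abundance. Ratios of all genes were lower in abundant genes, and 38 of the 63 members belonged to the most abundant eighth of genes. There the median was -0.03 for members and -0.06 for all 1298 genes of that eighth. In the next eighth, with 16 members, it was -0.0050 for members and -0.03 for all 1297 genes. These eighths hold 54 of the 63 members. In lower eighths with 4 members each the median was -0.09 for members and 0.03 for all genes in one, and 0.17 for members and 0.13 for all genes in another, and the 1 member left, Prpf40b, had -0.05 against 0.21 for all genes of its eighth.

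The 3 members called higher were Prpf39, Hnrnpa0 and Hnrnph1. Prpf39, whose protein is needed for the U1 particle to bind the start of an intron in yeast, stood at 27.6 CPM (25.8 to 29.6) in Idoxuridine and 18.3 CPM (17.1 to 19.7) in DMSO, a log2 ratio of 0.59 (0.45 to 0.73). Hnrnpa0, a relative of Hnrnpa1 encoded by a single exon, stood at 167 CPM in Idoxuridine and 114 CPM in DMSO, a log2 ratio of 0.55 (0.49 to 0.61). Hnrnph1, a close relative of Hnrnpf that also binds G runs, stood at 99.2 CPM in Idoxuridine and 69.9 CPM in DMSO, a log2 ratio of 0.50 (0.43 to 0.58), at the edge of the size required and under it with cells weighted equally (0.48) or thinned (0.49). The next member, Snrpg, a subunit of the Sm ring, stood at 194 CPM in Idoxuridine and 138 CPM in DMSO (0.49, 0.44 to 0.54), and passed the size with equal weights (0.51) or thinned cells (0.52). With TMM scaling the ratios of Prpf39, Hnrnpa0, Hnrnph1 and Snrpg were 0.38, 0.34, 0.29 and 0.28, so they stayed above 0 but under the size required.

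At the other end stood Sf3b5, Sf3b6, Hnrnpd and Srsf6, which were the 4 members called lower with TMM scaling and not in CPM. Sf3b5, a small SF3B subunit that like Hnrnpa0 has a single exon, stood at 108 CPM in Idoxuridine and 141 CPM in DMSO, a log2 ratio of -0.39 (-0.45 to -0.32). Sf3b6, the SF3B subunit that contacts the branch-point base, stood at 134 CPM in Idoxuridine and 168 CPM in DMSO (-0.33). Hnrnpd, which also binds AU-rich ends of short-lived messages, stood at 238 CPM in Idoxuridine and 295 CPM in DMSO (-0.31). Srsf6 stood at 570.4 CPM in Idoxuridine and 699.6 CPM in DMSO (-0.29, -0.32 to -0.27), the lowest ratio of the SR family. With TMM scaling these 4 ratios were -0.60, -0.54, -0.52 and -0.51.

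**Figure D2:**
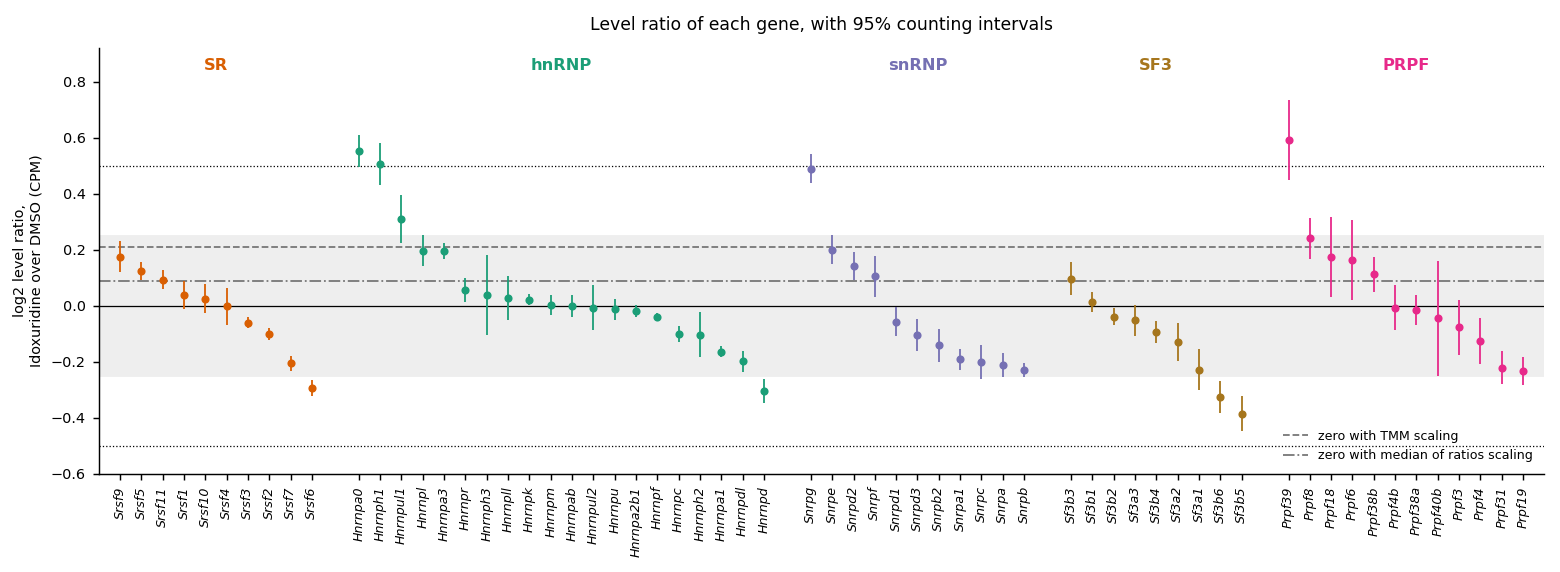
Log2 level ratio, Idoxuridine over DMSO, of 62 of the 63 genes by family, with 95% counting intervals; the grey band spans 0.25 log2 on either side of 0, dotted lines mark 0.5 log2, and the dashed and dash-dotted lines mark where 0 would lie with TMM and median-of-ratios scaling. In CPM 53 of these 62 genes lie in the band and Prpf39, Hnrnpa0 and Hnrnph1 reach the upper dotted line; from the dashed TMM line 0 genes lie 0.5 above and 4 lie 0.5 below.

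The genes at both ends of the ratios are annotated as protein-coding on GRCm38. Prpf39 lies at chr12:65036333-65063386 and overlaps Fkbp3 on the other strand, Hnrnpa0 at chr13:58125879-58128556 and Hnrnph1 at chr11:50376990-50386528. Sf3b5 lies at chr10:13005343-13009183, Sf3b6 at chr12:4817544-4827659, Hnrnpd at chr5:99955935-99978938 and Srsf6 at chr2:162931528-162937121. The 250 bases before the transcript start are shown for the 2 genes of each end with the largest differences in level among members matched in the RefSeq table (GRCm38.p6), which leaves out Sf3b5, each 5′ to 3′ on the gene's strand. Capitals mark, on either strand, the ETS factor core CCGGAAG, the CCAAT box, the GC box GGGCGG, the short motif CGCGAGA and the TATA box letters TATAAA.
Prpf39 (chr12:65036084-65036333, plus strand): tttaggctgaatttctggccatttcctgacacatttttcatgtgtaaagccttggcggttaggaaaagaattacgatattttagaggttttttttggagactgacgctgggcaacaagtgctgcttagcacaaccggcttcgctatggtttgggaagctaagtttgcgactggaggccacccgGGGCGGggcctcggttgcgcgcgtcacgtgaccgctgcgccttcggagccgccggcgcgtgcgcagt
Hnrnpa0 (chr13:58128557-58128806, minus strand): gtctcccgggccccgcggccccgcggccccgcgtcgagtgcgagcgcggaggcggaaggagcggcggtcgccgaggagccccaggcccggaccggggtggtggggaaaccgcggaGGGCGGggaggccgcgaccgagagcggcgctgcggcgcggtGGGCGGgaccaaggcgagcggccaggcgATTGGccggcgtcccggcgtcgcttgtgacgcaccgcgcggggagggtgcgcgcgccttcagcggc
Sf3b6 (chr12:4817358-4817607, plus strand): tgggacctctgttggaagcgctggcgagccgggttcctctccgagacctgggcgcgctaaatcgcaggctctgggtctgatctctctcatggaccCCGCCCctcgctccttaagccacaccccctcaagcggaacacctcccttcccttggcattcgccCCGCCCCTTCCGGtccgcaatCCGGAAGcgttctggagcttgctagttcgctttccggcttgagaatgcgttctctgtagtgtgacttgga
Hnrnpd (chr5:99978939-99979188, minus strand): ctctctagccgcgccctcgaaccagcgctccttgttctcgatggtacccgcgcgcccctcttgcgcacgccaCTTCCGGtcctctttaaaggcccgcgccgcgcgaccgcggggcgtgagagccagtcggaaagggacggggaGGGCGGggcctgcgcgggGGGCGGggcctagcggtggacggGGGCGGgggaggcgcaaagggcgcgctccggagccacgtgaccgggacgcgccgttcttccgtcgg
GC boxes occur on both sides: Hnrnpa0 and Prpf39 hold GGGCGG, as do Hnrnpd and Sf3b6. CCGGAAG is in the windows of Hnrnpd and Sf3b6 and not in those of Hnrnpa0 and Prpf39. Over the 55 members with a promoter in the table (300 bases, to 50 past the start), 36.4% held CCGGAAG on either strand, against 9.93% of all genes in the table. GGGCGG was in 69.1% of members and 38.2% of all genes, CGCGAGA in 12.7% and 2.92%, CCAAT in 50.9% and 41.1%, and TATAAA in 10.9% and 15.7%. TGACG, a partial cyclic-AMP response element, was in 54.5% of members and 23.0% of all genes, and CACGTG, the E-box, whose letters can overlap TGACG, in 16.4% and 8.09%. AAGATGGC, a YY1 core, was in 5.45% and 3.19%. Members' promoters were also richer in CpG, with a median of 25 per 300 bases against 7 over all 32851 promoters, and in GC (60.3% against 52.7%). The motif shares were not matched for base composition, and neither they nor these medians were matched for expression.

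The SR family split evenly, with 5 of 10 genes above 0 and 5 below in CPM, and all 10 below 0 with TMM scaling. With TMM scaling the median over all genes was itself -0.12, so more genes lay below 0 than above. The share of all genes below 0 was not counted, so the direction counts here and in the families below do not set members apart. Srsf9 had its highest ratio, 0.17 (0.12 to 0.23), at 154 CPM in Idoxuridine and 137 CPM in DMSO, and changes direction with TMM scaling. Srsf7, a relative of Srsf3, stood at 581 CPM in Idoxuridine and 670.0 CPM in DMSO (-0.21). Srsf3 and Srsf2, the most abundant, had ratios of -0.06 and -0.10. Srsf5, Srsf11, Srsf1, Srsf10 and Srsf4 had ratios between -0.0023 and 0.12, led by Srsf5 at 475 CPM in Idoxuridine and 436 CPM in DMSO. Within this family the more abundant genes thus had the lower ratios: the 4 with the most UMIs (Srsf3, Srsf2, Srsf6 and Srsf7) were all lower in Idoxuridine under CPM, TMM and median-of-ratios scaling.

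In the hnRNP family 10 genes were above 0 and 10 below in CPM, and 3 were above 0 with TMM scaling, where the median over all genes was -0.12. Hnrnpf (-0.04), Hnrnpk (0.02) and Hnrnpa2b1 (-0.02), the most abundant but for Hnrnpa1, lay within 0.05 of equal levels in CPM, with Hnrnpk below 0 under TMM and median-of-ratios scaling. Hnrnpa1 had a log2 ratio of -0.17 (-0.19 to -0.15). Hnrnpul1, a relative of the scaffold protein Hnrnpu, stood at 69.3 CPM in Idoxuridine and 56.0 CPM in DMSO (0.31, 0.22 to 0.40), and stayed above 0 under each scaling. Hnrnpa3 stood at 627 CPM in Idoxuridine and 548 CPM in DMSO (0.19) and Hnrnpl at 157 CPM in Idoxuridine and 137 CPM in DMSO (0.20), and both fall just below 0 with TMM scaling. Hnrnpdl, a relative of Hnrnpd, stood at 312 CPM in Idoxuridine and 358 CPM in DMSO (-0.20), and Hnrnpc, which binds runs of U bases, at 579 CPM in Idoxuridine and 621 CPM in DMSO (-0.10). The other 8 hnRNP genes (Hnrnpm, Hnrnpu, Hnrnpab, Hnrnpr, Hnrnpll, Hnrnpul2, Hnrnph2 and Hnrnph3) had ratios between -0.10 and 0.06.

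The snRNP genes are given by their place in the particle, a grouping made after their values had been seen. The 4 genes of U1 or U2 proteins outside the Sm ring were all lower in Idoxuridine, under CPM, TMM and median-of-ratios scaling: Snrpa (U1 A protein) stood at 245 CPM in Idoxuridine and 283 CPM in DMSO (-0.21, -0.25 to -0.17). Snrpa1, which encodes the U2 A′ protein, stood at 304 CPM in Idoxuridine and 347 CPM in DMSO (-0.19), Snrpc of U1 at 120.0 CPM in Idoxuridine and 138 CPM in DMSO (-0.20), and Snrpb2, which encodes the U2 B″ protein, at 129.6 CPM in Idoxuridine and 143 CPM in DMSO (-0.14). Their sum had a log2 ratio of -0.19 (-0.21 to -0.17). In CPM the median over all genes was -0.06 in the most abundant eighth and -0.03 in the next, the eighths that hold these 4 genes. Of the 7 Sm ring genes 4 (Snrpg, Snrpe, Snrpd2 and Snrpf) were above 0 in CPM, and of these only Snrpg stayed above 0 with TMM scaling. Snrpe stood at 187 CPM in Idoxuridine and 163 CPM in DMSO (0.20), Snrpd2 at 186 CPM in Idoxuridine and 169 CPM in DMSO (0.14) and Snrpf at 91.2 CPM in Idoxuridine and 84.8 CPM in DMSO (0.10). Snrpd1 stood at 171 CPM in Idoxuridine and 178 CPM in DMSO (-0.06) and Snrpd3 at 142 CPM in Idoxuridine and 153 CPM in DMSO (-0.10). Snrpb, the most abundant of them, stood at 753 CPM in Idoxuridine and 883 CPM in DMSO (-0.23, -0.25 to -0.21), and the sum of the ring had a ratio of -0.04.

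Of the SF3 genes 7 of 9 were below 0 in CPM and all 9 with TMM scaling, where the median over all genes was -0.12. In CPM the median over all genes was 0.09, and -0.06 in the most abundant eighth. The 3 SF3A genes summed to 330.5 CPM in Idoxuridine and 359 CPM in DMSO (-0.12, -0.16 to -0.08) and the 6 SF3B genes to 1481 CPM in Idoxuridine and 1568 CPM in DMSO (-0.08, -0.10 to -0.06). Sf3b1, the large subunit that clamps the branch site, stood at 345 CPM in Idoxuridine and 342 CPM in DMSO, and Sf3b2 at 472 CPM in Idoxuridine and 485 CPM in DMSO. Sf3b4 stood at 280.4 CPM in Idoxuridine and 299.5 CPM in DMSO (-0.10), and Sf3a3 at 151 CPM in Idoxuridine and 157 CPM in DMSO (-0.05). Sf3a1 stood at 80.8 CPM in Idoxuridine and 94.7 CPM in DMSO (-0.23), Sf3a2 at 98.2 CPM in Idoxuridine and 107 CPM in DMSO (-0.13), and Sf3b3, a partner of Sf3b5 in the SF3B core, at 142 CPM in Idoxuridine and 133 CPM in DMSO (0.10, below 0 with TMM scaling).

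Among the PRPF genes Prpf19, the ubiquitin ligase of the complex that activates the spliceosome, stood at 169.7 CPM in Idoxuridine and 199.7 CPM in DMSO (-0.23, -0.29 to -0.18). Prpf38a stood at 165 CPM in Idoxuridine and 167 CPM in DMSO, and Prpf31, which holds the U4/U6 pair to U5, at 119.9 CPM in Idoxuridine and 139.8 CPM in DMSO (-0.22). Prpf8, the large U5 protein at the catalytic centre, stood at 93.7 CPM in Idoxuridine and 79.3 CPM in DMSO (0.24, 0.17 to 0.31), and with Prpf39 it was the only PRPF gene that stayed above 0 with TMM scaling. Prpf18 (24.2 CPM in Idoxuridine and 21.5 CPM in DMSO), Prpf6 (23.8 CPM in Idoxuridine and 21.3 CPM in DMSO) and Prpf38b (122 CPM in Idoxuridine and 113 CPM in DMSO) had ratios of 0.17, 0.16 and 0.11, which turn below 0 with TMM scaling. Prpf4, a tri-snRNP protein, stood at 65.9 CPM in Idoxuridine and 72.0 CPM in DMSO (-0.13), and Prpf4b, Prpf3 and Prpf40b had ratios between -0.08 and -0.0077.

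Other genes of the splicing machinery, grouped in 8 lists, also stayed near equal levels in CPM. By the same call rule the lists held 2 called lower and 0 higher of 10 hnRNP proteins under other symbols, 0 and 0 of 22 SR-like proteins and SR kinases, and 1 higher and 1 lower of 26 other U snRNP and tri-snRNP proteins. They held 0 called of 18 U2 and branch site proteins and 0 of 25 catalytic and Prp19 complex proteins, 1 higher of 16 exon junction and export proteins, 1 lower of 15 snRNP assembly proteins, and 4 higher of 28 regulators of exon choice. Their median log2 ratios ran from -0.12 to 0.06. Over the 8 lists 6 of 160 genes were called higher (3.75%) and 4 lower (2.5%) in CPM, beside the 18.8% and 4.2% of all genes. These shares of all genes were not matched for abundance. With TMM scaling 3 were called higher (1.88%) and 13 lower (8.12%), beside 12.1% and 12.2%, and 3 of those lower were catalytic or Prp19 complex proteins and 1 a U2 or branch site protein. The genes called in CPM included Rbmx, an X-linked hnRNP, at 4.83 CPM in Idoxuridine and 9.29 CPM in DMSO (-0.94, -1.23 to -0.67), and Lsm7, of the ring on U6, at 31.6 CPM in Idoxuridine and 20.3 CPM in DMSO (0.64). The regulators of exon choice called higher were Esrp1 and Esrp2, epithelial factors, and Mbnl1 and Mbnl2, muscleblind factors of differentiated tissues, and all 4 were rare. Esrp1 stood at 5.48 CPM in Idoxuridine and 1.10 CPM in DMSO (2.31, 1.83 to 2.82), and Mbnl2 at 12.5 CPM in Idoxuridine and 5.02 CPM in DMSO (1.32, 1.07 to 1.57). U2af1, which reads the last bases of introns, stood at 413 CPM in Idoxuridine and 547 CPM in DMSO (-0.41), under the size required in CPM and past it with TMM scaling.

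The study set out to change the spread of expression between cells, so the spread of each splicing factor gene was measured at 1 fixed depth. Each cell was thinned to 23500 UMIs, which kept 648 Idoxuridine cells and 764 DMSO cells and left out 94 shallower Idoxuridine cells (12.7%) and 47 shallower DMSO cells (5.80%). Spread is given as the Fano factor, a gene's variance across cells divided by its mean, with 1 as the value that counting without other variation would give. It was higher in Idoxuridine for 47 of 63 members (74.6%), beside 79.2% of all 7316 genes that averaged 0.25 UMI or more per thinned cell in both libraries, a share near the background. The median Fano factor of members was 1.22 in Idoxuridine and 1.19 in DMSO, and that of all genes 1.14 in Idoxuridine and 1.08 in DMSO. In the most abundant eighth it was 1.34 in Idoxuridine and 1.25 in DMSO for the 38 members, below the 1.45 in Idoxuridine and 1.31 in DMSO of all genes there. Thinning pulls every Fano factor towards 1, and a gene with few UMIs lies near 1 at most amounts of relative variation, so a value near 1 does not show that a gene varied little.

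The Fano factor was highest for the most abundant members, as it grows with the mean count. Hnrnpf had a Fano factor of 3.55 in Idoxuridine and 2.95 in DMSO, from a thinned median of 55 UMIs per cell (10th to 90th percentile 39.7 to 75) in Idoxuridine and 58 UMIs (42 to 75) in DMSO. Srsf2 had 2.48 in Idoxuridine and 2.09 in DMSO, and Hnrnpa1 2.33 in Idoxuridine and 2.21 in DMSO. With the variance beyond counting divided by the squared mean, rarer genes could be more variable: Hnrnpf had 0.045 in Idoxuridine and 0.033 in DMSO, while Hnrnph1 had 0.125 in Idoxuridine and 0.183 in DMSO, and Hnrnpa0 0.105 in Idoxuridine and 0.123 in DMSO. The 5 highest Fano ratios were those of Hnrnpr at 1.43 in Idoxuridine and 1.16 in DMSO, Hnrnpc at 1.72 in Idoxuridine and 1.39 in DMSO, Srsf3 at 2.45 in Idoxuridine and 1.99 in DMSO, Hnrnpf, and Prpf38a at 1.18 in Idoxuridine and 0.986 in DMSO. The 3 lowest were those of Hnrnpul1 at 1.11 in Idoxuridine and 1.25 in DMSO, Prpf40b at 0.979 in Idoxuridine and 1.04 in DMSO, and Hnrnpu at 1.46 in Idoxuridine and 1.54 in DMSO. No counting interval applies to these ratios, and they have no replicate check.

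**Figure D3:**
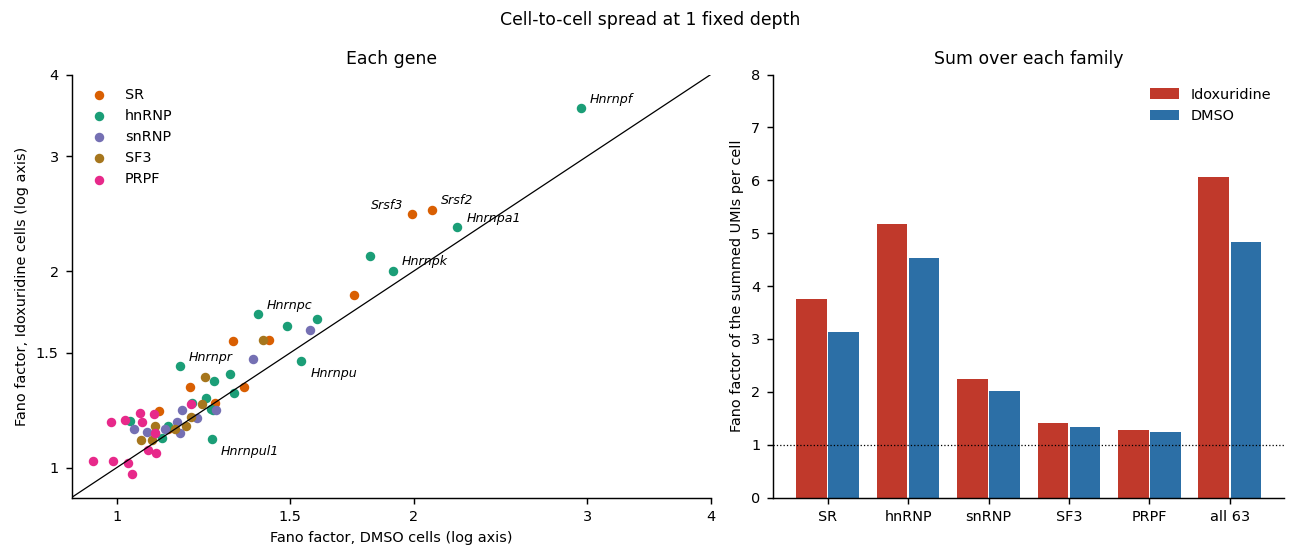
Left, Fano factor of each gene in Idoxuridine cells against DMSO cells (both log axes; the line marks equal values), coloured by family; 47 of 63 points lie above the line. Right, Fano factor of the UMIs summed over each family per cell, with Idoxuridine in red left of DMSO in blue and a dotted line at 1, the value for counting alone; the sum of all 63 genes reaches 6.06 in Idoxuridine and 4.83 in DMSO.

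Family sums had higher Fano factors than most of their single genes. The summed SR genes had a median of 115 UMIs per cell (10th to 90th percentile 89 to 141.3) in Idoxuridine and 123 UMIs (98 to 146.7) in DMSO, with Fano factors of 3.76 in Idoxuridine and 3.12 in DMSO. The hnRNP sum had a median of 224 UMIs (178 to 263) in Idoxuridine and 231 UMIs (190 to 265) in DMSO, with Fano factors of 5.16 in Idoxuridine and 4.52 in DMSO. The snRNP sum had Fano factors of 2.23 in Idoxuridine and 2.01 in DMSO, the SF3 sum 1.41 in Idoxuridine and 1.34 in DMSO, and the PRPF sum 1.28 in Idoxuridine and 1.24 in DMSO. By Fano factor the hnRNP sum was the most variable and the PRPF sum the least in both libraries, but the Fano factor grows with the mean. With the variance beyond counting divided by the squared mean, SR was highest, at 0.0238 in Idoxuridine and 0.0174 in DMSO. On that measure snRNP had 0.0210 in Idoxuridine and 0.0165 in DMSO, and hnRNP 0.0187 in Idoxuridine and 0.0154 in DMSO. The lowest were PRPF in Idoxuridine (0.0095, with SF3 at 0.0097) and SF3 in DMSO (0.0075, with PRPF at 0.0079).

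Co-variation over cells was measured in 2 ways at the same depth, by family sums and by pairs of genes. The variance of a family's sum divided by the sum of its members' variances is 1 where members vary independently. It was 2.32 in Idoxuridine and 2.27 in DMSO for hnRNP genes, 1.92 in Idoxuridine and 1.84 in DMSO for SR genes and 1.67 in Idoxuridine and 1.53 in DMSO for snRNP genes. For the SF3 genes it was 1.09 in Idoxuridine and 1.10 in DMSO, and for PRPF genes 1.09 in Idoxuridine and 1.15 in DMSO. These lay close to the value of independent genes. At the same correlation this ratio grows with the number of genes, and counting variation in genes with few UMIs pulls it towards 1. The families differ in both, so the ratio does not rank their co-variation. Over all 63 members it was 3.19 in Idoxuridine and 2.84 in DMSO.

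Pairwise correlations were small on average, and larger within the SR, hnRNP and snRNP families than between families. They were taken on 1 seeded thinning, for the 58 members that averaged 1 UMI or more per thinned cell in both libraries. The mean Pearson r over 343 pairs within a family was 0.063 in Idoxuridine cells (n = 648) and 0.054 in DMSO cells (n = 764), and over 1310 pairs between families 0.025 in Idoxuridine and 0.017 in DMSO. In cells of middle nuclear-retained share the mean between families was 0.0063 in Idoxuridine and 0.012 in DMSO. Members with the 3587 other genes of that abundance gave 0.0052 in Idoxuridine and 0.0048 in DMSO. Among genes with a thinned mean over 10 UMIs, where counting hides less, 78 member pairs had a mean r of 0.105 in Idoxuridine and 0.090 in DMSO, against 0.013 in Idoxuridine and 0.011 in DMSO for pairs of other genes. Within families the mean was 0.101 in Idoxuridine and 0.073 in DMSO for SR, 0.073 in Idoxuridine and 0.063 in DMSO for hnRNP, and 0.068 in Idoxuridine and 0.057 in DMSO for snRNP pairs. It was 0.0089 in Idoxuridine and 0.015 in DMSO for SF3 and 0.014 in Idoxuridine and 0.021 in DMSO for PRPF pairs, so SF3 pairs in both libraries and PRPF pairs in Idoxuridine lay below the mean between families. These are descriptions over cells of the same library, thinned to the same depth, and low means in sparse counts are not read as findings. The means within and between families were not matched for abundance.

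A core of abundant SR and hnRNP genes held the highest correlations, in both libraries. Hnrnpf and Hnrnpk had r = 0.315 in Idoxuridine cells and 0.389 in DMSO cells, the highest mean of any pair. Srsf3 and Srsf7 had 0.332 in Idoxuridine and 0.283 in DMSO, Srsf2 and Srsf7 0.266 in Idoxuridine and 0.342 in DMSO, and Srsf2 and Srsf3 0.275 in Idoxuridine and 0.305 in DMSO. Hnrnpu, which binds chromatin-associated RNA, and Hnrnpk had 0.248 in Idoxuridine and 0.306 in DMSO. Above r = 0.1 lay 241 of 1653 pairs in Idoxuridine and 183 in DMSO, 122 of them in both. Of these 122, 73 joined SR and hnRNP genes only, which make up 406 of the 1653 pairs. That comparison was not matched for abundance: the 13 members averaging over 10 UMIs were SR or hnRNP genes but for Snrpb and Sf3b2. Over all member pairs the share above 0.1 was 14.6% in Idoxuridine and 11.1% in DMSO, against 2.97% in Idoxuridine and 3.01% in DMSO of pairs of other genes averaging 1 UMI or more. Among genes averaging over 10 UMIs it was 51.3% in Idoxuridine and 37.2% in DMSO for member pairs, against 21.4% in Idoxuridine and 23.3% in DMSO for other pairs. Over all 1653 pairs the r in Idoxuridine and in DMSO cells had a correlation of 0.653, where pairs share genes and so are not independent points. Some members went the other way: Srsf9 and Hnrnpf had r = -0.179 in Idoxuridine and -0.204 in DMSO, and Hnrnpf and Hnrnpa0 -0.153 in Idoxuridine and -0.194 in DMSO.

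The upstream sequences of 4 genes from the highest pairs are shown, marked as above. In those pairs Srsf2, Srsf3 and Srsf7 joined each other, while Hnrnpk joined Hnrnpf and Hnrnpu, which are not shown. Srsf2 and Hnrnpk had r = 0.238 in Idoxuridine and 0.153 in DMSO, so the 4 genes are not given as 1 set that varied together. Srsf2 lies at chr11:116849901-116853094, Srsf3 at chr17:29032628-29043373, Srsf7 at chr17:80200080-80207307 and Hnrnpk at chr13:58391142-58403343.
Srsf2 (chr11:116853095-116853344, minus strand): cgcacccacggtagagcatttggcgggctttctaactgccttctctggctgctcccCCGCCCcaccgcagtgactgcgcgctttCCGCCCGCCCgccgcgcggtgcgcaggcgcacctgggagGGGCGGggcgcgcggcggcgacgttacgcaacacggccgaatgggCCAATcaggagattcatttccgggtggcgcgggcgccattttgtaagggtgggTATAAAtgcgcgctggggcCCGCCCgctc
Srsf3 (chr17:29032410-29032659, plus strand): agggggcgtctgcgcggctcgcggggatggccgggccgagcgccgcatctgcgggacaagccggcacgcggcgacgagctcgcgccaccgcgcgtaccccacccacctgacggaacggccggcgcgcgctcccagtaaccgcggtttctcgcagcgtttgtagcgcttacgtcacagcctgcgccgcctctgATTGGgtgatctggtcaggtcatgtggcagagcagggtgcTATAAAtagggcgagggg
Srsf7 (chr17:80207306-80207555, minus strand): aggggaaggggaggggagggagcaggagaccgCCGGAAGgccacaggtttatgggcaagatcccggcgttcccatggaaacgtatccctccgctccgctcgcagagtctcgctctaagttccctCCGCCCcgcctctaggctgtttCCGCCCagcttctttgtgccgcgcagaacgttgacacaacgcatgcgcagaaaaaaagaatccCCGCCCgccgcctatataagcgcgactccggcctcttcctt
Hnrnpk (chr13:58402118-58402367, minus strand): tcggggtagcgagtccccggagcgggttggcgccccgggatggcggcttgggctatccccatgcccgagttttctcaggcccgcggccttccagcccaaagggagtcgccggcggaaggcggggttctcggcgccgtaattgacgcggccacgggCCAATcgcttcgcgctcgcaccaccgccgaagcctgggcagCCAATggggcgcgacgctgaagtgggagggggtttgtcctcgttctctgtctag
Srsf2 and Srsf3 hold both TATAAA near the start and a CCAAT in either direction, and they are 2 of the 6 members with TATAAA. Srsf7 holds neither of these exact letters and has GC boxes and CCGGAAG. It does hold TATATAAG near the start, similar letters that an exact search for TATAAA does not find, so it is not shown to lack a TATA box. Hnrnpk has CCAAT without the other marked motifs. No marked motif is shared by all 4 windows.

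**Figure D4:**
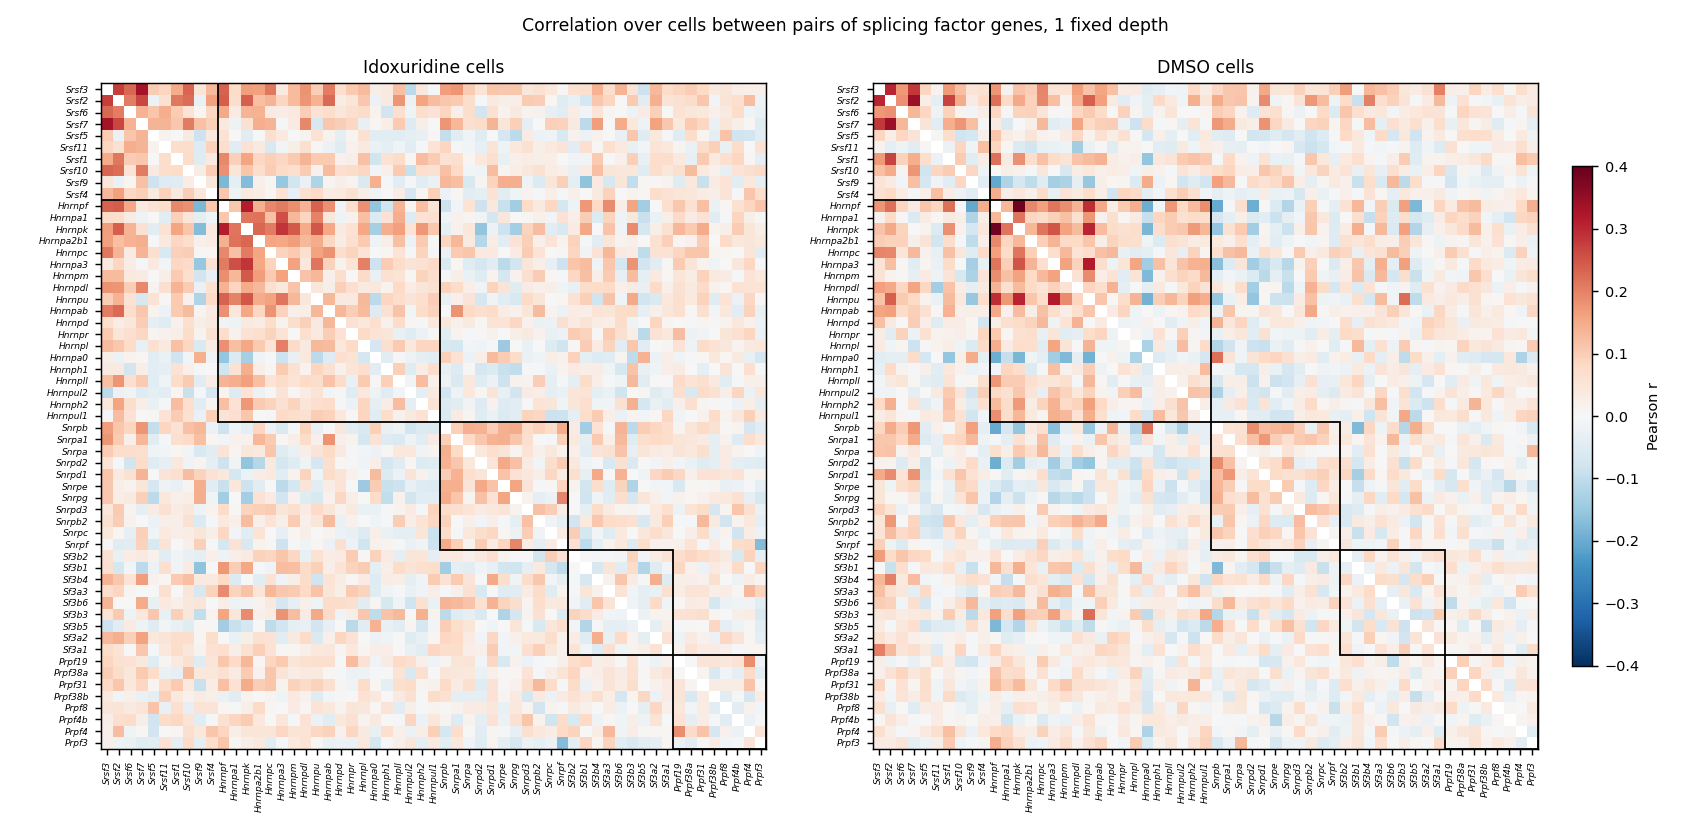
Pearson r over cells between each pair of 57 of the 58 genes averaging 1 UMI or more per thinned cell, Idoxuridine cells at left and DMSO cells at right, with genes by family and in order of UMIs and black squares round each family. Red blocks at the upper left of the SR and hnRNP squares hold the abundant genes, such as Hnrnpf with Hnrnpk at 0.315 in Idoxuridine and 0.389 in DMSO, and the SF3 and PRPF squares are pale.

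Family sums also moved with measures of the cell, although all cells were thinned to the same depth. The hnRNP sum was lower in cells with more raw UMIs, with r = -0.295 in Idoxuridine and -0.452 in DMSO, and the snRNP sum was higher in them, with 0.323 in Idoxuridine and 0.420 in DMSO. The sums of hnRNP and snRNP genes had r = 0.00026 with each other in Idoxuridine and -0.092 in DMSO, against 0.367 in Idoxuridine and 0.280 in DMSO between SR and hnRNP sums and 0.246 in Idoxuridine and 0.254 in DMSO between SR and snRNP sums. Most single genes of these families lay on the same side: 16 of 20 hnRNP genes had a negative r with raw UMIs in both libraries and 10 of 11 snRNP genes a positive one. The share of all genes with each sign was not counted, so these counts do not set members apart. The r was -0.246 in Idoxuridine and -0.413 in DMSO for Hnrnpf, and 0.246 in Idoxuridine and 0.386 in DMSO for Snrpb. Hnrnpa0 (0.258 in Idoxuridine and 0.260 in DMSO) and Srsf9 (0.261 in Idoxuridine and 0.25 in DMSO) had the highest r of their families. The exceptions of small size were Hnrnpa2b1, Hnrnpc and Hnrnpd on the positive side, with r up to 0.106, and Snrpb2 on the negative side, at -0.036 in Idoxuridine and -0.125 in DMSO. Over the 63 genes this r ranked alike in both libraries (Spearman rho 0.919), and it was lower for genes with longer transcripts (rho -0.53 in Idoxuridine and -0.44 in DMSO over the longest coding transcript). What sets this relation to depth was not tested.

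Measures of RNA content and quality moved with the sums as well. The hnRNP sum had r = -0.546 in Idoxuridine and -0.571 in DMSO with ribosomal protein UMIs, and -0.451 in Idoxuridine and -0.365 in DMSO with mitochondrial UMIs. Both sides were counted in cells thinned to the same total, so more UMIs of a large class leave fewer for other genes. How much of the negative r comes from that fixed total was not tested. The snRNP sum had r = 0.067 in Idoxuridine and 0.077 in DMSO with ribosomal protein UMIs, and 0.015 in Idoxuridine and -0.017 in DMSO with mitochondrial UMIs. Nuclear-retained UMIs had r = -0.383 in Idoxuridine and -0.421 in DMSO with the snRNP sum and -0.340 in Idoxuridine and -0.302 in DMSO with the SR sum. After a linear fit of each gene on these 3 measures and raw UMIs, the mean r was 0.039 in Idoxuridine and 0.022 in DMSO within families, and 0.014 in Idoxuridine and 0.0064 in DMSO between them. The means were lower than without the fit. After it the hnRNP mean was 0.042 in Idoxuridine and 0.018 in DMSO, against 0.073 and 0.063 without it. In the same order the snRNP means were 0.042 and 0.028, against 0.068 and 0.057 without the fit. The SR means were 0.081 and 0.055, against 0.101 and 0.073 without the fit. Within the SF3 and PRPF families of Idoxuridine cells, at 0.0054 and 0.0027, the means again lay below the mean between families. In DMSO cells they lay above it after the fit, at 0.0105 for SF3 and 0.0080 for PRPF. SF3 in DMSO had lain below it without the fit, so that order changed. The fit was chosen after the relations above had been seen.

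The cell cycle score also moved with the sums. The sum of all 63 genes had r = 0.465 in Idoxuridine and 0.414 in DMSO with the S phase score, led by Hnrnpf (0.398 in Idoxuridine and 0.358 in DMSO) and Srsf2 (0.382 in Idoxuridine and 0.340 in DMSO). Srsf7 (0.300 in Idoxuridine and 0.285 in DMSO) and Srsf6 (0.173 in Idoxuridine and 0.276 in DMSO) had the highest r of the SR genes with the G2/M score. Phase calls put 306 Idoxuridine cells in S and 336 in G2/M, against 417 DMSO cells in S and 343 in G2/M. Only 6 Idoxuridine cells (0.93%) and 4 DMSO cells (0.52%) were called G1. Whether so few cells were in G1 was not tested, so the calls are not read as the cell cycle distribution of the cultures. The hnRNP sum had a median of 232 UMIs in S and 217 in G2/M for Idoxuridine cells, and 235 in S and 226 in G2/M for DMSO cells. Within S cells all members summed to a median of 483 UMIs in Idoxuridine and 496 in DMSO, and within G2/M cells to 464.5 in Idoxuridine and 484 in DMSO. G2/M cells also had more raw UMIs, with a median of 45350 against 35720.5 in S cells of the Idoxuridine library and 51091 against 40963 in the DMSO library, so phase and depth cannot be told apart in these medians.

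**Figure D5:**
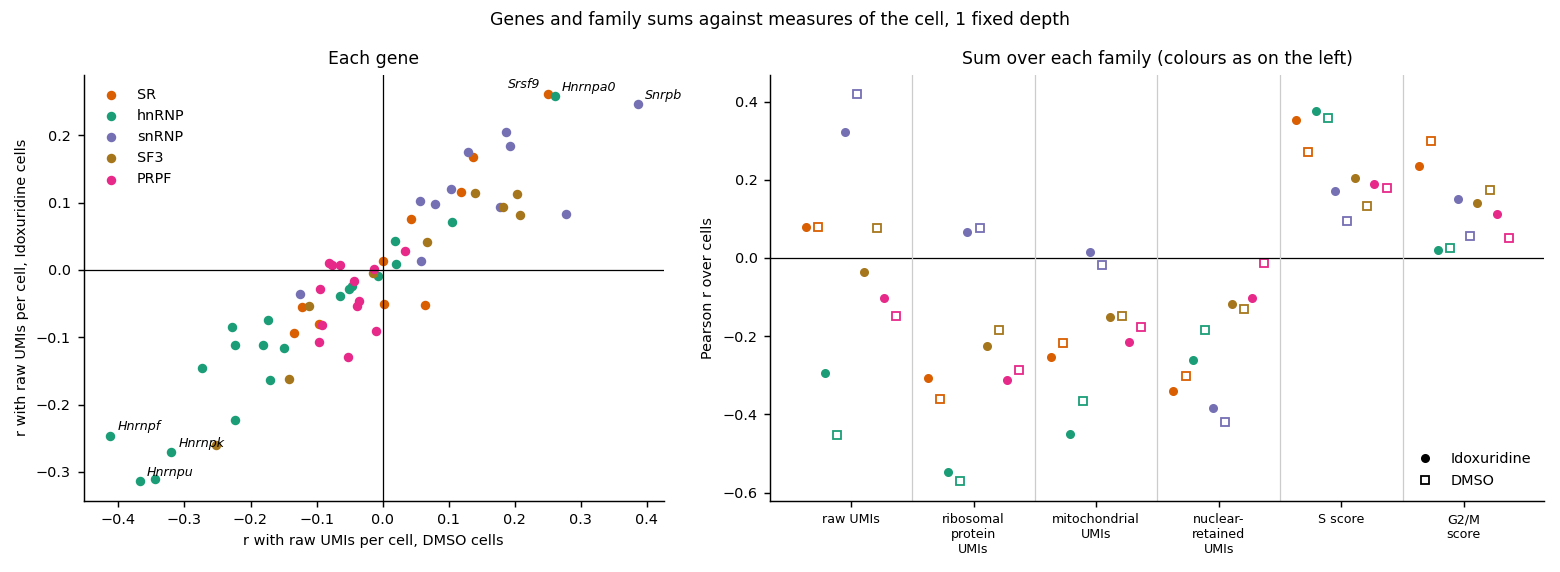
Left, r of each gene with the raw UMIs of the cell, Idoxuridine cells against DMSO cells, coloured by family; hnRNP genes such as Hnrnpf (-0.246 in Idoxuridine and -0.413 in DMSO) lie at the lower left and snRNP genes such as Snrpb (0.246 in Idoxuridine and 0.386 in DMSO) at the upper right. Right, r of each family's sum with 6 measures of the cell, with filled circles for Idoxuridine left of open squares for DMSO; the hnRNP sum lies lowest against ribosomal protein UMIs, at -0.546 in Idoxuridine and -0.571 in DMSO.

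Some counts are less certain because of the genome around the members. All 63 are protein-coding genes on 18 chromosomes, and 25 overlap a gene on the other strand and 11 a gene on the same strand. In 7 members over 10% of the 50-base words in the last 400 bases of the transcripts also occur in another gene, mostly a predicted copy. These are Hnrnpa3 (43.7%), Snrpc (42.1%), Hnrnpf (39.6%), Hnrnpk (31.5%), Snrpa (24.3%), Hnrnph2 (12.8%) and Snrpe (11.5%). No member shares such words with another member, so these copies could not by themselves move counts between the genes described here.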

How the data were processed

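RNA of mouse E14 cells was measured in 2 single-cell libraries, 1 per treatment, on the 10x Genomics 3′ V2 system, per the labels' protocols. About 3000 cells were loaded per library. The authors deposited raw counts of UMIs for every gene in every cell. Per the submitters' processing notes, Cell Ranger 2, Seurat and the build mm10 were used. How barcodes were kept as cells, and the gene annotation behind the counts, are not given in the sources used here. Every barcode was kept, and no doublet caller was run. Samples were grouped by their treatment label.

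For levels, UMIs were summed over cells and scaled to CPM, with exact Poisson 95% intervals and exact conditional binomial intervals for ratios, which cover counting error only. The call rule (0.5 log2, separate intervals, at least 200 UMIs) ran over all genes. TMM used edgeR 4.0.16 and median of ratios DESeq2 1.42.0, for scaling alone. For Fano factors and variance ratios, the exact expectation of thinning to 23500 UMIs was used, a depth near the 10th percentile of UMIs per cell. Correlations, percentiles per cell and phases used 1 seeded thinning, and phases scanpy 1.11.5 with 42 S and 54 G2/M genes of Seurat 5.3.0. The scripts were tested on simulated data.

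The members and lists were chosen with earlier results of these data known. Genes were named by a rule: called members, the 4 most abundant per family, the 4 highest and 4 lowest level ratios, the 5 highest and 3 lowest Fano ratios, the 3 highest Fano factors in DMSO, the 5 most correlated pairs, and up to 3 genes per other list by size of ratio; Hnrnpu, Srsf9, Hnrnpa0 and other members set against depth, phase or position were named after their values were seen, and the remaining members to account for them. The values of 1 member are not reported here and are left out of the plots that name each gene, while counts and sums include it. Gene positions come from GENCODE M21 (GRCm38). RefSeq promoters (GRCm38.p6) were matched by symbol for 55 of 63 members. Lists of nuclear-retained RNAs (6 genes; 3 higher, 1 lower, median log2 ratio 0.62), housekeeping genes (9 tested; 3 higher, 0 lower, -0.10), trophectoderm (246 CPM in Idoxuridine and 151 CPM in DMSO), mesendoderm (36.2 CPM in Idoxuridine and 17.5 CPM in DMSO) and neuroectoderm markers (205 CPM in Idoxuridine and 132 CPM in DMSO) were also measured.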

Additional observations from a re-analysis of the deposited data

How the results depend on the processing

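No paired analysis was possible because each treatment has 1 library. Levels depended on scaling. With TMM scaling the log2 ratios of the family sums were -0.28 (SR), -0.23 (hnRNP), -0.30 (snRNP), -0.30 (SF3), -0.23 (PRPF) and -0.26 (all members), and with median-of-ratios scaling -0.16, -0.11, -0.18, -0.18, -0.11 and -0.14 in that order. Without mitochondrial, ribosomal protein and Malat1 UMIs in the totals they were -0.047, 0.0035, -0.062, -0.064, 0.0030 and -0.024. With cells weighted equally the hnRNP sum was -0.041 and all members -0.061, and with thinned cells the hnRNP sum was -0.038 and the snRNP sum -0.062. The members' median ratio was -0.22 (TMM), -0.10 (median of ratios), 0.013 (without those UMIs), -0.033 (equal weights) and -0.024 (thinned). Members called higher numbered 0 with TMM and 1 with median of ratios, beside 12.1% and 15.3% of all genes. Members called lower numbered 4 with TMM, beside 12.2% of all genes. A size of 0.25 log2 gave 5 members higher and 4 lower. The share of all genes called at that size was not counted, so these counts do not set members apart. The scaling factor, the total or the size moves these values by construction, and for equal weights and thinned cells the cause was not tested.

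For spread, under 15000 or 30000 UMIs, without the deepest 5% of cells, without cells over 10% mitochondrial UMIs, and in cells of middle nuclear-retained share, 41 to 50 members had a higher Fano factor in Idoxuridine, beside 70.8% to 79.6% of all genes. In cells of middle nuclear-retained share 18 of 63 log2 Fano ratios moved by more than 0.1. In the last of these the mean r between families was 0.0063 in Idoxuridine, and the cause was not tested. The residual fit, chosen after seeing the data, gave mean r of 0.039 and 0.014 in Idoxuridine and 0.022 and 0.0064 in DMSO, within and between families. Variance ratios moved by no more than 1.5-fold under every alternative run, a limit that ratios near 1 could hardly pass. With a second seed phase medians moved by no more than 1 standard deviation over cells. For the hnRNP sum in S cells of Idoxuridine that was 34.2 UMIs, beside medians of 232 in S and 217 in G2/M. Such wide limits show little about how stable these values are. A single library per treatment and, for genes under about 1 UMI per cell, depth limit what can be shown.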
